A study of Mus musculus with 19 samples.

Results

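The Fanconi anaemia, homologous recombination, replication checkpoint and related repair genes were described in mouse skin squamous cell carcinoma as 1 module of 30 genes, out of 1609 genes with a row in the authors' deposited table of expression ratios. Members were 35 listed repair and checkpoint genes plus any further gene whose symbol starts with Fanc. Of the 35 listed genes 29 had a row, and Fancl was the 1 further row. The listed genes Fanci, Fancm, Rad51b, Xrcc3, Atr and Polq had none. The authors' name for the table calls its genes differentially expressed, but what they required for a row is not stated in the sources used here. Genes that differed little may therefore have no row, and the genes counted may have been selected on these same ratios. The counts below cover the 30 genes with a row and not all 35 listed. Shares of the table are likewise shares of such genes and not of all expressed genes.

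RNA had been sequenced from cells sorted out of 2 tumours, SCC1 and SCC2, by the transferrin receptor CD71 and by H2B-GFP, a fluorescent histone that dividing cells dilute. Quiescent cells were CD71lo H2BGFPhi, double negative cells CD71lo H2BGFPlo and proliferative cells CD71hi H2BGFPlo, with 1 library of 100000 cells for each population and tumour. Both tumours were allografts in the skin, grown from 10000 cells injected into the dermis, and the strain given is C57BL/6. The promoter that drives the label, the oncogenic driver, and the animals' sex and age are not stated in the sources used here. Accessible chromatin (ATAC-seq, 50000 cells a library) covered these populations, a double positive CD71hi H2BGFPhi population, and 2 libraries of a Tgfbr2KO tumour, SCC3. Smad2/3 binding was mapped by ChIP-seq in 12000000 SCC1 cells after 1 h with 5 ng/mL TGFβ1 in 50 uM calcium, and copy number was called from the input DNA of SCC1 and SCC2.

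Replicating cells meet crosslinked bases, broken ends and stalled forks. In the Fanconi anaemia pathway a core complex attaches ubiquitin to the Fancd2 and Fanci pair at a crosslink, and nucleases then open the lesion. Homologous recombination copies the missing sequence from the sister chromatid, after broken ends have been resected and Brca2 has prepared the resected DNA for pairing. The checkpoint kinases Atm and Atr, with their effectors Chek2 and Chek1, slow the cycle while damage or a stalled fork persists. Many of these genes are transcribed around S phase, and E2F transcription factors, which bind short GC-rich motifs near the start of such genes, are among the regulators known for them.

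The expression values were log2 ratios between populations of the same tumour, so a value of -1 means 2-fold less RNA in the population named first. The table gives no expression levels, read totals or q-values, so the depth behind a ratio is unknown. With 1 library per population and tumour there is no replicate within a tumour, and with 2 tumours the smallest two-sided p of an exact sign-flip test would be 0.5, so none was run. In bulk samples fewer cells of a type and less RNA per cell cannot be told apart. The sort could be checked on Tfrc, which encodes CD71: its quiescent over proliferative ratio was -1.72 in SCC1 and -1.55 in SCC2, and its double negative over proliferative ratio -1.63 and -2.02 (the authors' deposited table). Keratinocyte identity could be checked little, since only Epcam and Krt6b of 12 listed keratinocyte markers had a row, and Krt5 and Krt14 had none. Epcam had quiescent over proliferative ratios of -3.21 in SCC1 and -0.40 in SCC2, and Krt6b of -3.71 and 3.22 (the authors' deposited table). Markers of other cell types differed between the tumours. The 7 fibroblast markers with a row of 12 listed had a median quiescent over proliferative ratio of 0.08 in SCC1 and 4.03 in SCC2, and the 6 immune markers of 12 had medians of -0.22 and 2.81. Their part in the ratios of the members was not tested.

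In quiescent cells all 30 repair and checkpoint genes had less RNA than in proliferative cells of the same tumour, in SCC1 and in SCC2. The share below 0 in both tumours was 52.3% of all genes with a row. The median ratio of the members was -2.64 in SCC1, which is 6.22-fold lower, and -1.69 in SCC2, which is 3.22-fold lower. The table as a whole also leaned down, with medians of -0.61 and -0.49. After each column was centred on its own median, 29 members remained below 0 in both tumours, the exception being Fancl. Of the 29, Rad51c in SCC1, at -0.70, lay close to that column's median of -0.61. Shares of the table here and below are for ratios as deposited, and none was computed after centring. A ratio of -1 or lower in both tumours was found for 22 of the 30 members, against 23.3% of the table. The 8 members short of that were Fancd2, Palb2, Msh6, Atm, Rmi2, Xrcc2, Fancl and Rad51c.

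**Figure D1:**
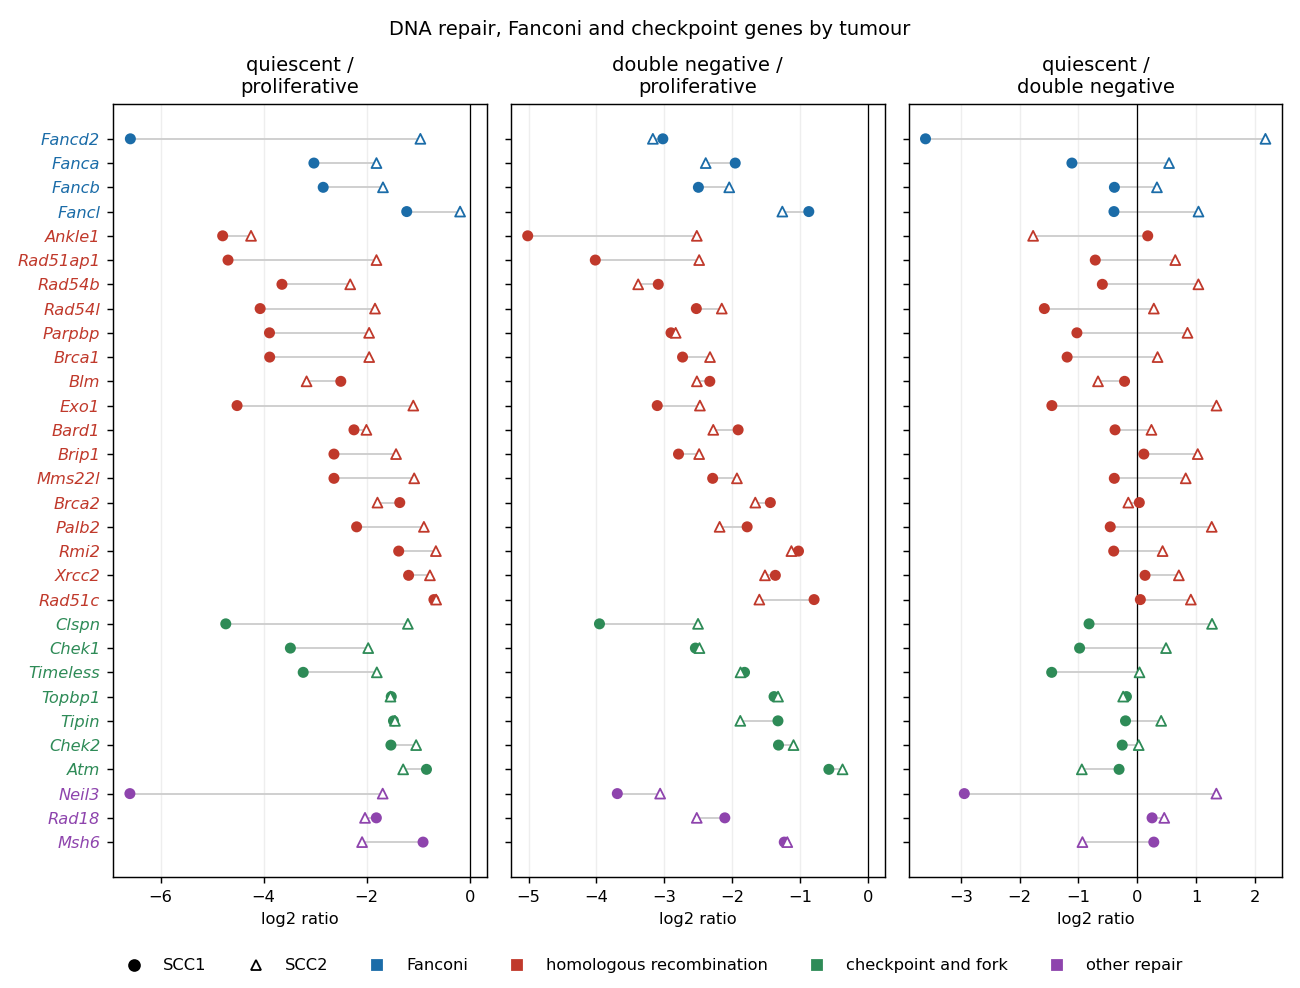
Log2 ratios of the 30 members in SCC1 (filled circles) and SCC2 (open triangles) for 3 pairs of populations, with genes down the page ordered by role and then by mean quiescent over proliferative ratio; each point is the authors' value for 1 pair of libraries, so there are no error bars. As deposited, every point in the first and second panels lies left of 0 (after centring Fancl in SCC2 would not in the first), while in the last panel 23 genes have their SCC1 and SCC2 points on opposite sides of 0.

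Among the 4 Fanconi genes, Fancd2, the protein that receives ubiquitin at a crosslink, had the widest gap between tumours. The authors' deposited table gave it a quiescent over proliferative ratio of -6.59 in SCC1 and -0.96 in SCC2, that is 96.1-fold and 1.94-fold lower. Fanca and Fancb, both subunits of the core complex, lay closer together. Fanca had ratios of -3.03 in SCC1 and -1.81 in SCC2 (the authors' deposited table). Fancb had -2.84 and -1.69 (the authors' deposited table). Fancl, the ubiquitin ligase of the core complex, was among the least different members. It stood at -1.22 in SCC1 and -0.19 in SCC2 (the authors' deposited table), so in SCC2 quiescent cells held nearly as much Fancl RNA as proliferative cells. All 4 Fanconi genes were lower in SCC1 than in SCC2, against 61.8% of the table, and their medians were -2.94 and -1.32.

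The 16 recombination genes covered the whole path, including resection, pairing, strand exchange and the resolution of joints. Brca1 and its partner Bard1, which together form a ubiquitin ligase at broken ends, had less RNA in quiescent cells of both tumours. Brca1 was at -3.88 in SCC1 and -1.95 in SCC2 (the authors' deposited table), and Bard1 was at -2.25 and -2.01 there. Exo1, an exonuclease of end resection, stood at -4.52 in SCC1 and -1.10 in SCC2 (the authors' deposited table). The helicase Brip1, a Brca1 partner, was at -2.64 and -1.43 (the authors' deposited table). Exo1 thus differed strongly between the tumours, and Bard1 hardly did.

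Next come genes that prepare resected DNA for pairing. Brca2, the mediator of this step, had ratios of -1.36 in SCC1 and -1.79 in SCC2 (the authors' deposited table). Palb2, which joins Brca1 to Brca2, was at -2.20 and -0.89 (the authors' deposited table). Brca2 was among the 6 members that were lower in SCC2. Xrcc2 and Rad51c, which act beside Brca2 in recombination, were at the upper end of the module. Xrcc2 stood at -1.19 in SCC1 and -0.77 in SCC2, and Rad51c at -0.70 and -0.65 (the authors' deposited table). Mms22l, which promotes recombination at stalled forks, was at -2.64 and -1.08 (the authors' deposited table). Rad51c therefore had 1.62-fold and 1.57-fold less RNA in quiescent cells, the smallest mean difference among the 30 members.

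Of the factors of strand exchange, Rad51ap1, which promotes pairing, had ratios of -4.69 in SCC1 and -1.81 in SCC2 (the authors' deposited table). Rad54l and Rad54b, motor proteins that help strands exchange, were lower in both tumours as well. Rad54l stood at -4.07 and -1.84, and Rad54b at -3.65 and -2.32 (the authors' deposited table). Parpbp, known from human cells as a factor that restrains recombination, was at -3.89 in SCC1 and -1.95 in SCC2 (the authors' deposited table). All of them had at least 12.5-fold less RNA in quiescent than proliferative cells of SCC1, and between 3.51-fold and 5.00-fold less in SCC2.

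Ankle1, an endonuclease that cuts branched DNA and chromatin bridges, had the lowest mean ratio of the module and similar values in both tumours. It was at -4.80 in SCC1 and -4.25 in SCC2 (the authors' deposited table), or 27.8-fold and 19.0-fold lower. Blm, the RecQ helicase that dissolves joined molecules, was lower in SCC2, with -2.50 in SCC1 and -3.17 in SCC2 (the authors' deposited table). Its complex partner Rmi2 differed less, with -1.38 and -0.66 (the authors' deposited table). Across the 16 recombination genes the medians were -2.64 and -1.80, and 14 were lower in SCC1 than in SCC2. The same held for 61.8% of the table, for 5 of 7 checkpoint and fork genes and for 1 of 3 members of other repair paths.

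Promoter sequences from RefSeq (build GRCm38.p6, 250 bases before to 50 after the annotated start) were matched to 24 of the 30 members. They were searched on both strands for 4 E2F motifs, TTTGGCGC or TTTCCCGC or TTTGCCGC or TTTCGCGC, and 7 members held one. The stretches with the match are shown because this was, of the motifs searched, the one whose share in the members lay furthest from the backgrounds given below. Capitals mark the match as it reads on the gene's strand, with up to 50 bases either side. Among recombination genes these were Bard1 (chr1:71103124-71103222, minus strand, match starting at position -209 from the start), Brca2 (chr5:150522403-150522510, plus strand, position -168), and Rad51c, which has 2 annotated starts (chr11:87404457-87404545 and chr11:87404905-87405009, minus strand, positions 11 and -5).
Bard1: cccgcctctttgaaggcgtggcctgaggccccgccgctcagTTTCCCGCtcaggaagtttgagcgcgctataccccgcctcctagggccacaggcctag
Brca2: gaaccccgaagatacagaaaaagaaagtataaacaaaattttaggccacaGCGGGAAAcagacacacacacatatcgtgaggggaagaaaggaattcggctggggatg
Rad51c, start within an ATAC peak: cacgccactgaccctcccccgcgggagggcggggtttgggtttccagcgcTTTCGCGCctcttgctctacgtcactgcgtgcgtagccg
Rad51c, other start: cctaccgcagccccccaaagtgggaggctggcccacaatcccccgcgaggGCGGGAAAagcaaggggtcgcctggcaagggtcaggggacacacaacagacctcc

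Of the 7 checkpoint and fork genes, Clspn, the adaptor through which Atr activates Chek1, and Chek1 itself were lowest in quiescent cells of SCC1. Clspn stood at -4.74 in SCC1 and -1.20 in SCC2 (the authors' deposited table). Chek1, the effector kinase at stalled forks, was at -3.48 and -1.97 (the authors' deposited table). Timeless, which travels with the fork, was at -3.23 in SCC1 and -1.80 in SCC2 (the authors' deposited table). Its binding partner Tipin had a smaller difference in SCC1 and similar values in both tumours, -1.48 in SCC1 and -1.45 in SCC2 (the authors' deposited table). Topbp1, which activates Atr, had nearly the same ratio in both tumours, -1.52 in SCC1 and -1.54 in SCC2 (the authors' deposited table). The double-strand break kinase Atm and its effector Chek2 were near the upper end of the module. Chek2 was at -1.53 and -1.04, and Atm at -0.84 and -1.29 (the authors' deposited table). The medians of the 7 genes were -1.53 in SCC1 and -1.45 in SCC2, nearer to each other than those of the Fanconi and recombination genes.

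Of these 7 genes, 3 held an E2F motif in the promoter: Chek2 (chr5:110839781-110839888, plus strand, position -152), Clspn (chr4:126556951-126557029, plus strand, position 21) and Topbp1 (chr9:103305148-103305255, plus strand, position -129). Capitals again mark the match.
Chek2: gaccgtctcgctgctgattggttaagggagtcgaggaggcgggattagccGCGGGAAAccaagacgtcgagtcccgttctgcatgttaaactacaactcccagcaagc
Clspn: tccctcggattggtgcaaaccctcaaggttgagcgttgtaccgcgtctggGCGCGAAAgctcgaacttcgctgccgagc
Topbp1: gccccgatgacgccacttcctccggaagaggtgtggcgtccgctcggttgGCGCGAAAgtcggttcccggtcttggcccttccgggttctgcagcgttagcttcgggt

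The 3 remaining members act in other repair paths. Neil3, a DNA glycosylase that removes oxidised bases and also unhooks crosslinks, was at -6.60 in SCC1 and -1.69 in SCC2 (the authors' deposited table), or 96.7-fold and 3.23-fold lower in quiescent cells. Rad18, the ligase that attaches ubiquitin to Pcna at stalled forks, stood at -1.81 and -2.03 (the authors' deposited table). Msh6, a mismatch recognition protein, was at -0.91 and -2.09 (the authors' deposited table). Msh6 was the member with the largest excess of SCC1 over SCC2, while Neil3 and Fancd2 had the largest gaps in the other direction. The Msh6 promoter held an E2F motif (chr17:87975015-87975099, plus strand, position 15).
Msh6: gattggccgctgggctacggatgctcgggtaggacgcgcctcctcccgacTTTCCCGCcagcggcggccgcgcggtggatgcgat

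Double negative cells were low for CD71 and for the label. They also had less RNA of all 30 members than proliferative cells in both tumours, against 50.9% of the table. The count stayed at 30 after centring, though Atm in SCC2, at -0.37, lay only just below that column's median of -0.34. The members' medians were -2.20 in SCC1 and -2.23 in SCC2, or 4.58-fold and 4.69-fold lower, where the table's medians were -0.35 and -0.34. A ratio of -1 or lower in both tumours was found for 27 of 30 members, against 25.2% of the table, and Atm, Fancl and Rad51c were the 3 others. Ratios of the members ran between -5.01 and -0.57 in SCC1 and between -3.38 and -0.37 in SCC2. The lowest in SCC1 was Ankle1, with -5.01 in SCC1 and -2.52 in SCC2 (the authors' deposited table). Rad54b was lowest in SCC2, with -3.09 in SCC1 and -3.38 in SCC2 (the authors' deposited table). Fancd2, which had differed so much between tumours in quiescent cells, stood at -3.02 in SCC1 and -3.17 in SCC2 in double negative cells (the authors' deposited table). Neil3 likewise came closer, at -3.69 and -3.06 (the authors' deposited table). Atm had the smallest difference, -0.57 and -0.37 (the authors' deposited table).

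Markers of other cells had medians above 0 in the same comparison, though Lum, at -0.73, and Lyz2, at -0.07, were below 0 in SCC2. Double negative over proliferative medians were 5.09 in SCC1 and 3.08 in SCC2 for the 2 endothelial markers of 8 listed, Cldn5 and Egfl7, 2.71 and 0.51 for the 7 fibroblast markers and 1.30 and 0.68 for the 6 immune markers. Epcam and Krt6b had medians of -1.74 and -0.57. The part of these cells in the members' ratios was not tested. The submitters' processing notes name mm9 beside mm10 for the double negative libraries, which enter every ratio with double negative cells, and whether annotations were mixed in them was not tested.

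The tumours could be set against each other for each pair of populations, as a description over genes that share their libraries. For double negative over proliferative cells the members' ratios in SCC1 and SCC2 had a Pearson correlation of 0.778 and a Spearman correlation of 0.864 (n = 30 genes), with a median difference, SCC1 minus SCC2, of -0.05. For quiescent over proliferative cells the correlations were 0.291 and 0.34 (n = 30 genes), with a median difference of -1.18. For quiescent over double negative cells they were -0.549 and -0.47 (n = 30 genes), with a median difference of -1.07. In the whole table these pairs of correlations were 0.722 and 0.859 for double negative over proliferative cells, 0.641 and 0.71 for quiescent over proliferative cells, and 0.196 and -0.136 for quiescent over double negative cells. The quiescent over proliferative ratio was lower in SCC1 than in SCC2 for 24 of 30 members, against 61.8% of the table, and the 6 others were Msh6, Rad18, Blm, Brca2, Atm and Topbp1. The double negative over proliferative ratio was lower in SCC1 for 16 of 30, against 45.6% of the table.

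Quiescent cells set against double negative cells gave opposite directions in the 2 tumours for 23 of 30 members, against 53.4% of the table. In SCC1 the quiescent cells had less RNA for 23 of 30 members, against 70.9% of the table, and in SCC2 for 6 of 30, against 42.7% of the table. The medians were -0.39 in SCC1 and 0.48 in SCC2, where the table's medians were -0.23 and 0.13. Below 0 in SCC1 and above 0 in SCC2 were 20 of 30 members, against 40.8% of the table, and 17 after centring, when Chek2, Timeless and Tipin no longer met it. Ankle1, Brca2 and Msh6 went the other way. The members below 0 in both tumours were Blm, Topbp1 and Atm, 3 of 30 against 30.0% of the table, and those above 0 in both were Brip1, Rad18, Xrcc2 and Rad51c, 4 of 30 against 16.3% of the table.

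Fancd2 had the widest split, at -3.60 in SCC1 and 2.18 in SCC2 (the authors' deposited table). Neil3 followed with -2.94 and 1.35 (the authors' deposited table). Exo1 was at -1.45 in SCC1 and 1.35 in SCC2 (the authors' deposited table). In these 3 genes quiescent cells held the least RNA of the 3 populations in SCC1, and double negative cells the least in SCC2. Ankle1 had the reverse order, at 0.18 in SCC1 and -1.77 in SCC2 (the authors' deposited table). Msh6 stood at 0.28 and -0.93 (the authors' deposited table). The 3 ratios of a tumour share libraries, so they are not separate evidence: for all 30 members the quiescent over proliferative ratio differed from the sum of the other 2 by the tumour's median gap, 0.0394 in SCC1 and 0.0267 in SCC2, to within 0.1.

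**Figure D2:**
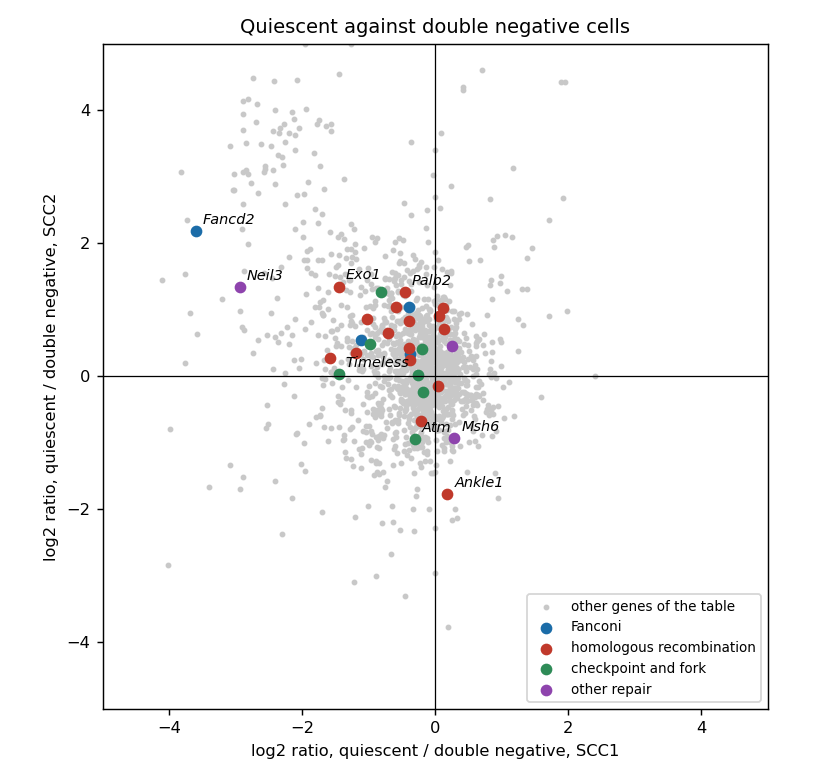
Log2 ratio of quiescent over double negative cells in SCC1 (x axis) against SCC2 (y axis) for the members, coloured by role, and for 1534 other genes of the table in grey; 45 other genes lie outside the axes, which end at 5 and -5. Most members sit at the upper left, below 0 in SCC1 and above 0 in SCC2, with Fancd2 and Neil3 farthest out and Ankle1 in the lower right.

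Markers of other cells split between the tumours in the same comparison. The quiescent over double negative medians of the 7 fibroblast markers were -2.69 in SCC1 and 3.50 in SCC2, and those of the 6 immune markers -1.51 and 2.30. The keratinocyte markers Epcam and Krt6b had medians of -1.76 and 1.96, and the 2 endothelial markers -5.85 and -1.30. Below 0 in SCC1 and above 0 in SCC2 were 6 of 7 fibroblast, 5 of 6 immune, 2 of 2 keratinocyte and 0 of 2 endothelial markers. The table gives no levels, so how much RNA these cells contributed is unknown, and their part in the result was not tested.

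The split was shared with other genes of the cell cycle. Against 20 of 30 members, 32 of the 41 replication genes with a row, of 50 listed, and 52 of 55 mitosis genes were below 0 in SCC1 and above 0 in SCC2. Median quiescent over double negative ratios were -0.30 and 0.59 for replication and -1.06 and 1.19 for mitosis. Against proliferative cells, the members lay between these groups in SCC1: quiescent medians were -2.64 for the members, -2.12 for replication and -4.54 for mitosis. In SCC2 the members were at -1.69, replication at -1.17 and mitosis at -1.77. Double negative medians in SCC1 and SCC2 were -1.61 and -1.93 for replication and -3.43 and -3.21 for mitosis. Mki67, a marker of cycling cells, had quiescent over proliferative ratios of -5.90 in SCC1 and -2.28 in SCC2 (the authors' deposited table). How far the members' ratios follow the number of cycling cells was not tested.

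**Figure D3:**
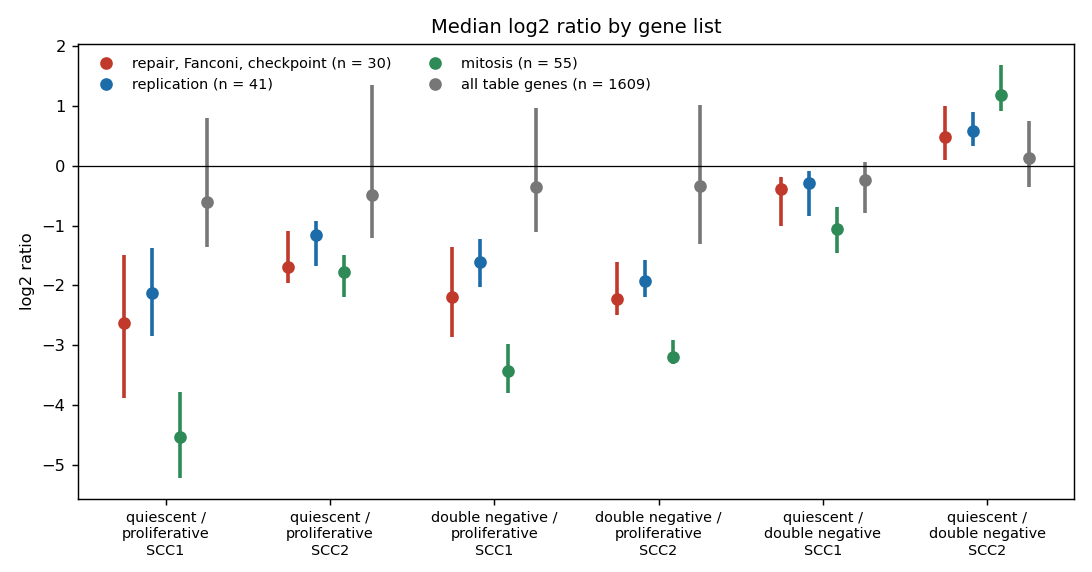
Median log2 ratio (points) with the lower and upper quartile over genes (bars) for the 30 members, 41 replication genes, 55 mitosis genes and all 1609 table genes, for each pair of populations and tumour. In both comparisons with proliferative cells the members lie below the table and above the mitosis genes in each tumour; against double negative cells the medians of all 3 lists are below 0 in SCC1 and above 0 in SCC2.

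The wider repair and checkpoint repertoire was taken from 147 further listed genes, some of which are also replication genes. Only 32 of them had a row, including 13 of 42 genes listed under other recombination, 6 of 21 other Fanconi and crosslink genes, 4 of 20 base excision genes, 4 of 19 checkpoint genes, 3 of 12 translesion genes, 1 of 9 end joining genes, 1 of 6 mismatch genes and 0 of 18 nucleotide excision genes. Of the 32, 31 were lower in quiescent than proliferative cells of both tumours and 32 lower in double negative cells of both. The exception was C230052I12Rik, for which the reference gives Faap24 as the current symbol, at -0.84 in SCC1 and 0.43 in SCC2 (the authors' deposited table). Their medians were -1.49 in SCC1 and -1.25 in SCC2 for quiescent cells, and -1.40 and -1.59 for double negative cells. Quiescent over proliferative ratios of -1 or lower in both tumours, found for 22 of the 30 members, were found for 16 of these 32.

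Among those 16, 8 belong to the recombination list. Fignl1, an ATPase of recombination, stood at -4.97 in SCC1 and -2.57 in SCC2 (the authors' deposited table). BC030867 was at -4.90 and -3.87 (the authors' deposited table). Tonsl, the partner of Mms22l, had a smaller difference, with -1.54 and -1.39 (the authors' deposited table). Helq, a helicase, Mcm8, a helicase subunit of recombination, H2afx, the histone marked at breaks, and Zfp367 ran between -1.73 and -1.25 in both tumours. Zfp367, a zinc finger protein, is counted because the list holds it, and no role in recombination is claimed for it here. In the Fanconi path Ube2t, the enzyme that works with Fancl to attach ubiquitin, was at -3.08 in SCC1 and -1.18 in SCC2 (the authors' deposited table). Usp1, which takes ubiquitin off Fancd2 again, stood at -1.68 and -1.51 (the authors' deposited table). The chromatin remodeller Hells was at -3.20 and -2.08 (the authors' deposited table). The remaining 5 were the ligase Lig1 (-2.38 and -1.11), the ubiquitin ligase subunit Dtl (-3.67 and -1.52), the phosphatases Cdc25b (-1.96 and -1.62) and Cdc25c (-6.52 and -1.58), and the kinase Pkmyt1 (-2.69 and -1.93), with SCC1 before SCC2 and all taken from the authors' deposited table. These 5 are known for work at forks or at the entry to mitosis as well.

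Over the 24 members with a promoter sequence, the E2F motif was in 7, or 29.2%, against 8.48% of 1226 table genes, 4.8% of 10196 genes whose promoter lay in an ATAC peak and 2.6% of all 27025 genes in the promoter table. None of the matches in the members overlapped another. The CCAAT box, letters CCAAT, was in 13 of 24 members, or 54.2%, against 49.3%, 43.7% and 41.1% of the same backgrounds. The cell cycle homology region (CHR), letters TTTGAA or TTCGAA, was in 4 of 24, or 16.7%, against 22.6%, 16.4% and 21.7%. For the members whose E2F stretches are printed above, the median quiescent over proliferative ratio was -1.52 in SCC1 and -1.54 in SCC2 (n = 7), with Clspn lowest among them in SCC1, at -4.74 (the authors' deposited table). The medians were, for the members with a promoter but no such motif, -3.03 and -1.81 (n = 17). A match describes letters in this window and says nothing of binding. No promoter was matched for Fancd2, Rmi2, Exo1, Tipin, Rad54b and Xrcc2.

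**Figure D4:**
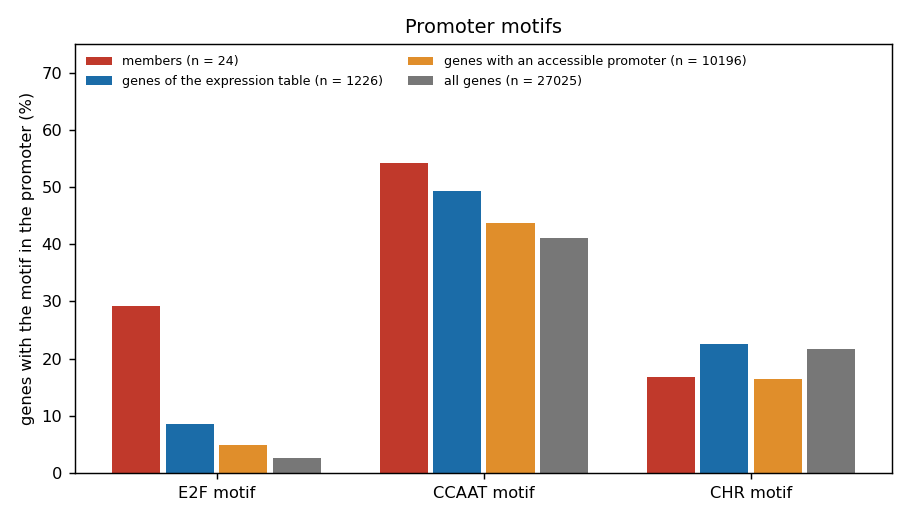
Percent of promoters that hold each motif on either strand, for the 24 members with a promoter sequence, 1226 genes of the expression table, 10196 genes with an ATAC peak at the promoter and all 27025 genes of the promoter table; bars are shares of genes, so there are no error bars. The E2F bars are at 29.2% for the members, 8.48% for the table, 4.8% for accessible promoters and 2.6% for all genes; the CCAAT bars lie between 41.1% and 54.2%, and the CHR bars between 16.4% and 22.6%.

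Chromatin at the members was accessible in the authors' list of 61553 ATAC peaks, which merges libraries and so gives no comparison between populations. An ATAC peak lay over the promoter of 23 of 24 members, or 95.8%, against 78.5% of table genes and 37.7% of all genes in the promoter table. Timeless was the 1 member without one. Its promoter window, chr10:128237816-128238115, lay inside the gene, whose annotated range begins at 128232063. Within 10 kb of Timeless there were 3 ATAC peaks, with 0 in the gene itself. Smad2/3 sites were mapped in SCC1 cells under TGFβ1, and the authors' name for the list gives them as bound sites with a motif. Binding without a motif is therefore not covered. The listed sites lay near few members: 3 of 30 had one in the gene or within 10 kb, against 21.4% of table genes. These members were Chek2, Fancb and Timeless. Chek2 held 2 sites inside the gene, at chr5:110840086-110840286 and chr5:110871993-110872193. Fancb had 1 inside, at chrX:164980340-164980540, and 1 at chrX:164980092-164980292, 188 bp outside. The site near Timeless, at chr10:128256398-128256598, was 3457 bp outside the gene. All 5 sites lay in an ATAC peak. No expression data after TGFβ1 were analysed here, so the sites cannot be set against a response of these genes.

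Copy number changes at the members were gains only. In the input DNA of SCC1, 12 of 30 members, or 40.0%, lay in a region called as a gain, against 45.1% of the table genes found in the reference annotation. In SCC2 it was 11 of 30, or 36.7%, against 44.0%. No member lay in a loss, where 1.56% of table genes in SCC1 and 1.44% in SCC2 did. Gains in both tumours covered 9 members, or 30.0%, against 35.8% of table genes. Of these, 4 lie on chromosome 11: Brca1, Brip1 and Rad51c each had 4 copies in SCC1 and 3 in SCC2, and Fancl 5 and 3. Timeless had 4 copies in each tumour, Rad54l 4 in SCC1 and 3 in SCC2, and Msh6 3 and 4. Brca2 and Chek2 had 3 in each tumour. Ankle1, Mms22l and Rad54b were in gains of SCC1 only, and Blm and Parpbp in gains of SCC2 only, each at 3 copies. Copy number was not called in the sorted populations.

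None of the 30 members had a row in the authors' table of nonsynonymous mutations called from RNA, which covers quiescent and proliferative cells of both tumours and holds 1426 calls in 540 genes. Of the 1609 table genes 73, or 4.54%, had one. Fance, a core complex subunit without an expression row, was the only Fanconi gene with a call. It was a T-to-G change at chromosome 17, position 28322647 (mm10), in exon 9, which the authors' deposited table gives as T1355G in the coding sequence and V452G in the protein, counted from their starts. It was listed in quiescent cells of SCC1 at 15% of 48 reads (exact 95% binomial interval 6.1 to 27.8, computed from the rounded percent and covering counting error only) and in none of the other 3 libraries. Calls were fewer in SCC2 quiescent cells, 95 at a median depth of 19 reads, than in the other libraries, which had 411 to 498 calls at median depths of 33 to 40. Depth at sites without a call is not given, so a mutation in a gene with few reads could not be detected.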

How the data were processed

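The RNA libraries were processed with TopHat2 2.0.9, Cufflinks 2.2.0 and Cuffdiff 2.2.0 on mm10, with mm9 also named for the double negative libraries, and Bowtie and Picard 1.88 served for ChIP and input, per the submitters' processing notes. Which programs called the peaks, copies and mutations is not stated in the sources used here. The expression values are log2 ratios between populations of a tumour, deposited by the authors, with scaling not stated. The mutation table gives read counts at each site and the percent of reads with the change, rounded by the authors. The copy number table gives whole copies and a p-value per region, deposited by the authors. ATAC peaks and Smad2/3 sites were deposited as positions alone.

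Members and gene lists were chosen with earlier results of these data known. Computation used Python 3.11.15 with pandas 2.3.3, numpy 2.4.6, scipy 1.17.1 and matplotlib 3.10.9. A member counted as lower when its ratio was below 0 in SCC1 and SCC2, beside the same share over 1609 rows, with no test. All members with a row are named, with further genes named at a quiescent over proliferative ratio of -1 or lower in both tumours. Gene positions came from RefSeq GRCm38.p6, the assembly that mm10 names, which matched 1600 table genes and all 30 members. Overlaps needed at least 1 bp in windows of the gene and 10 kb either side. Steps were tested on simulated data. Alternatives were each tumour alone, centring, a stricter ratio, other windows, a depth of at least 20 reads and an authors' p of 0.01 or lower.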

Additional observations from a re-analysis of the deposited data

Results flagged for a closer look

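The quiescent over double negative log2 ratio went opposite ways in the 2 tumours for 23 of 30 members, with SCC1 and SCC2 on different sides of 0, against 53.4% of all table genes. Each tumour gives 1 ratio, so the difference between the tumours was not tested. In 20 of them SCC2 was the higher, or in 17 after each column was centred on its table median. Differences below are SCC2 minus SCC1 on the log2 scale. Among the Fanconi genes SCC2 was higher for Fancd2 by 5.79, Fanca by 1.65, Fancl by 1.44 and Fancb by 0.72. Among the recombination genes it was higher for Exo1 by 2.80, Parpbp by 1.883, Rad54l by 1.86, Palb2 by 1.73, Rad54b by 1.63, Brca1 by 1.54, Rad51ap1 by 1.36, Mms22l by 1.22, Rmi2 by 0.83 and Bard1 by 0.62. Of the checkpoint and fork genes, SCC2 exceeded SCC1 for Clspn by 2.09, Timeless by 1.49, Chek1 by 1.47, Tipin by 0.61 and Chek2 by 0.28. In addition SCC2 was higher for the glycosylase gene Neil3, by 4.29. The difference ran the other way for Ankle1, at -1.95, Msh6, at -1.21, and Brca2, at -0.19. Both Brca2 ratios, and the SCC2 ratios of Chek2 and Timeless, lay near 0, so their signs carry little. Most fibroblast and immune markers split between the tumours in the same comparison, with values given in the results. So did the keratinocyte markers Epcam and Krt6b, 32 of 41 replication genes and 52 of 55 mitosis genes, while the endothelial markers did not. The part of other cell types, or of cycling cells, in these differences was not tested.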

How the results depend on the processing

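Centring each column on its table median left 29 members below 0 in both tumours for quiescent over proliferative cells and 30 for double negative over proliferative cells. It moved the median of the members' mean quiescent over proliferative ratio to -1.65, against -2.20 as deposited. For double negative over proliferative cells this median moved to -1.88, against -2.22, and for quiescent over double negative cells to -0.01, against -0.06. The construction shifts every gene of a column alike. With each tumour alone, the median ranged between -2.64 and -1.69 for quiescent over proliferative cells, between -2.23 and -2.20 for double negative over proliferative cells, and between -0.39 and 0.48 for quiescent over double negative cells, the last changing sign. The count of members lower in quiescent than double negative cells, 3 in both tumours together, ranged between 6 in SCC2 alone and 23 in SCC1 alone, and was 0 at a ratio of -1 or lower in both. Leaving out ratios at the table's limit changed nothing, since 0 members are there. The count of members near a Smad2/3 site was 7 within 50 kb, or 23.3% against 42.0% of table genes, and 3 within 10 kb, where it was 21.4% of table genes. The background share of the E2F motif was 8.48% among table genes and 4.8% among accessible promoters, against 2.6% of all promoters; these backgrounds, and the centring of opposite signs, were chosen after seeing the data. No paired analysis was possible because the deposited ratios are already differences within a tumour, with no unpaired values to set beside them. Limits are 1 library per population and tumour, unknown depth, no levels, and a table of genes named as differentially expressed whose entry rule is not given.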
